A study of Mus musculus with 3 samples.

Results

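The lacrimal gland of a mouse model of dry eye, made with scopolamine and dry stress, was set against the gland of normal control mice. Both were limited to the same window of sequencing depth, inside which depth still differed. Nuclei were taken from both libraries where they held 1600 to 8000 unique molecular identifiers (UMIs, 1 for each captured RNA molecule), at least 300 genes and at most 5% mitochondrial UMIs. This left 5532 of 7253 control nuclei and 4413 of 10024 scopolamine nuclei, 9945 of the 29599 barcodes in the series. The UMIs of these nuclei were summed over the whole gland, so each group is represented by 1 library and every interval below covers counting error only. The groups are called control and scopolamine. Strain, genotype, age, the number of animals, the dose and the length of the treatment are not given in the sources used here, and the third library of the series, from dry eye mice given tamsulosin, enters no comparison. The labels' protocol also speaks of a sort of red fluorescent nuclei and of a plate method, and whether it holds for these droplet libraries was not settled.

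The lacrimal gland makes the watery part of the tear film. Its acinar cells store proteins in granules and release them, with salt and water, when acetylcholine from parasympathetic nerves acts on muscarinic receptors of the M3 type, which raise calcium inside the cell; myoepithelial cells contract around the acini, and ducts modify the fluid. Scopolamine blocks muscarinic receptors, and together with dry, moving air it is a standard way to bring about dry eye in mice, in which the gland and the eye surface become inflamed.

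CPM is the unit of all levels: a gene's UMIs among each 1000000 UMIs of a library. The main total, called the reduced total, leaves out 67 genes. They are the mucin-like gene Mucl2, the secretoglobins (Scgb), the odorant-binding proteins (Obp), the exocrine gland-secreted peptides (Esp) and the mitochondrially encoded genes. As a set these took very different shares of the 2 libraries, while the Esp and mitochondrial genes differed less, as given below. The reduced total was 14909149 UMIs in control and 11798543 in scopolamine. Depth still differed inside the window, with a median of 2287.5 UMIs per nucleus in control and 3198 in scopolamine. Below 1600 UMIs lay 776 control and 4722 scopolamine barcodes, and the lowest deposited barcode held 1492 UMIs in control and 967 in scopolamine. Both libraries held Xist, expressed from the inactive X chromosome, at 1377 CPM in control and 1681 in scopolamine, and at most 1 UMI of each Y-linked gene looked for, so both looked female. The libraries shared 22 barcodes, 6 of them among the kept nuclei. Gm42418, a gene model that overlaps a ribosomal RNA locus, lay at 15976 CPM in control and 4024 in scopolamine, and was singled out after its values were seen.

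Cell makeup of the kept nuclei differed between the libraries. Nuclei were grouped by marker genes: a nucleus with at least 3 UMIs over at least 2 markers of a type was assigned to that type, a range and not a cell type, and 855 control and 601 scopolamine nuclei lay just below it. Nuclei with myoepithelial markers made up 4.90% (4.345 to 5.501) of control and 9.43% (8.58 to 10.3) of scopolamine nuclei. Those with endothelial markers were 0.687% (0.487 to 0.942) and 2.31% (1.89 to 2.80), those with fibroblast markers 2.86% (2.43 to 3.33) and 4.31% (3.73 to 4.95), and those with macrophage markers 2.64% (2.23 to 3.10) and 4.24% (3.66 to 4.87). T or NK cell markers were carried by 1.27% (0.988 to 1.60) and 2.29% (1.87 to 2.77). These 5 types thus took larger shares in scopolamine. Nuclei with B or plasma cell markers were 1.95% and 1.86%, those with Schwann cell markers were 8 and 7 nuclei, and those with pericyte markers 4 and 1. The window itself bears on these shares. Of all deposited barcodes 76.3% were kept in control and 44.0% in scopolamine. Over all of them the myoepithelial share was 4.81% and 5.84%, the endothelial share 1.01% and 1.38% and the macrophage share 2.56% and 2.78%. The fibroblast share was 2.63% and 3.03%, the T or NK cell share 1.21% and 1.66% and the B or plasma cell share 2.72% and 1.85%. Nuclei below every gate, called the remaining nuclei, were 84.1% and 75.4% of the kept nuclei. All 13 acinar markers checked against the labelled tissue were measured, and 6 of them were 1.5-fold or more higher on the reduced total described above and 0 lower, with a median log2 ratio of 0.58. Of 6 measured duct markers 4 were higher and of 6 measured myoepithelial markers 6, with 0 lower in both. On the total of all genes 5 acinar markers were higher and 1 lower, 2 duct markers higher and 3 myoepithelial markers higher.

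A set of 77 control nuclei, 1.39% (1.10 to 1.74), carried markers of salivary gland, and 0 of 4413 scopolamine nuclei did, which allows a share of up to 0.068% by the limit of 3 counts of the total. In these 77 nuclei Bpifa2, a secreted protein of parotid gland, lay at 8414 CPM, and in the remaining control nuclei at 43.1. Bpifa2 and Amy1 are themselves on the marker list, so their level in these nuclei follows from how the nuclei were chosen. Of 10 listed markers these 2 alone were measured. With Bpifa2 at 0 UMIs in scopolamine, the gate could hardly be passed there. Nuclei that pass this gate thus stood in 1 library only, and what they held of Bpifa2, Smr3a, Amy1 and Pnliprp1 is given beside those genes.

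Secretory transcripts took a far larger part of the scopolamine library. The families left out of the reduced total held 8.64% (8.63 to 8.66) of UMIs in control and 26.9% (26.91 to 26.95) in scopolamine, a ratio of 3.12. Mucl2 alone went from 2.59% to 8.68%, the secretoglobins from 2.22% to 9.31% and the odorant-binding proteins from 2.46% to 7.12%. The exocrine gland-secreted peptides, pheromone-like peptides of tear fluid, went from 1.05% to 1.47%, and the mitochondrial genes from 0.322% to 0.359%. Per nucleus, the median share was 8.76% in control, with 1 in 10 nuclei above 11.5%. In scopolamine the median was 20.2%, with 1 in 10 nuclei above 47.7%.

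**Figure D1:**
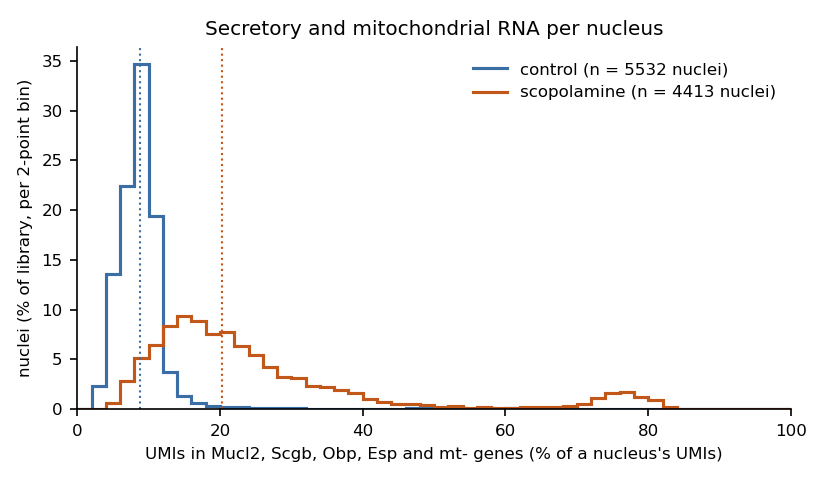
Share of each nucleus's UMIs in the Mucl2, Scgb, Obp, Esp and mt- genes (x axis, percent) against the percent of nuclei of the library in each 2-point bin (y axis), with dotted lines at the medians. Control nuclei form a single narrow peak around 8.76%, while scopolamine nuclei spread around 20.2% with a second peak near 75.4%.

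The scopolamine distribution had a second peak, seen only after the values were plotted. In 412 scopolamine nuclei, 9.34% (8.49 to 10.2) of those kept, over 50% of UMIs fell in the left-out families, against 26 control nuclei, 0.470% (0.307 to 0.688). These scopolamine nuclei were deep but simple: their median was 5093 UMIs and 557 genes, against 2967 UMIs and 1438 genes in the other scopolamine nuclei. They gave 13.6% of the summed UMIs of the library, 37.3% of its left-out UMIs and 4.90% of its reduced total. Mucl2 took 25.9% of their UMIs, the secretoglobins 25.6% and the odorant-binding proteins 19.5%. Malat1, an RNA kept in the nucleus, took 0.655% of all their UMIs and 4.02% of those of the other scopolamine nuclei; on the reduced total it lay at 24911 and 50003 CPM. Mitochondrially encoded genes took 0.872% of all their UMIs and 0.278% in the others. What these barcodes hold was not tested. Without them the left-out share was 8.27% in control and 19.6% in scopolamine, a ratio of 2.37, and the counts of higher and lower genes given below were 1967 and 449.

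The higher share was found in every group of nuclei. In the remaining nuclei the left-out families held 8.70% of UMIs in control and 28.7% in scopolamine. In nuclei with macrophage markers, which should make no tear protein, the families held 7.20% and 16.7%, in those with endothelial markers 7.11% and 16.2%, and in those with fibroblast markers 6.77% and 19.0%. Mucl2 alone took 2.25% and 5.12% of the UMIs of nuclei with macrophage markers, and 2.60% and 9.30% in the remaining nuclei. Secretory RNA was thus found in nuclei that should not make it. Its source, free RNA included, and its part in the share of the remaining nuclei, were not tested.

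The members of these families did not move as one. On the reduced total, Scgb2a2 lay at 19.7 CPM in control and 194 in scopolamine and was 9.88-fold higher (8.75 to 11.2), Esp16 7.77-fold higher (7.33 to 8.24), at 88.1 and 684 CPM, and Scgb1b20 6.53-fold higher (6.12 to 6.96), at 76.5 and 499 CPM. The most abundant members were Mucl2, at 28326 CPM in control and 118794 in scopolamine, and Obp1a, at 22154 and 89939.9 CPM, which were 4.19-fold and 4.06-fold higher. Scgb1b2 lay at 7827 and 49913 CPM and Scgb2b27 at 2.62 and 14.6 CPM. Esp36 went the other way and was 3.92-fold lower (3.76 to 4.08), at 895 and 229 CPM. Esp31 lay at 1255 and 920.0 CPM and Scgb2b7 at 70.02 and 56.7 CPM, neither past 1.5-fold. Esp34 (1.61-fold) and Esp23 (1.51-fold) were lower too. Of the 38 members measured out of 67, 18 were higher by 1.5-fold or more and 3 lower by as much on the reduced total, and 13 and 6 on the total of all genes. Many of these genes are close copies of one another, so reads could be split between them in counting. Gm5938 and Gm1553, gene models that followed the secretory families in the 412 nuclei described above, were kept in the reduced total; they were singled out after their values were seen. Gm5938 lay at 21097 CPM in control and 35705 in scopolamine, and Gm1553 at 4692 and 12227 CPM.

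Across the gland, 10855 genes reached a mean of at least 5 CPM over both libraries and are called measured; a gene can pass this filter through 1 library alone. On the reduced total 1893 of them, 17.4%, stood 1.5-fold or more above control in scopolamine and 506, 4.66%, stood 1.5-fold or more below it. The choice of total shifts every ratio by the same factor and moves the median log2 ratio of all measured genes from 0.05 to -0.27. On the total of all genes, 1008 genes, 9.29%, were higher and 2057, 18.9%, lower. The 1008 higher genes and the 506 lower genes are therefore past 1.5-fold on both totals, and levels below are given on the reduced total unless stated. Counts in gene lists are read against these percentages: a list with about 17.4% of members higher and 4.66% lower is like the gland as a whole. Low genes can be measured through scopolamine alone and are then higher by construction, so counts are also given for genes with a mean of at least 20 CPM, of which 6579 were measured, 10.5% higher and 5.11% lower. Among the remaining nuclei alone, 1461 of 10307 measured genes, 14.2%, were higher and 556, 5.39%, lower.

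**Figure D2:**
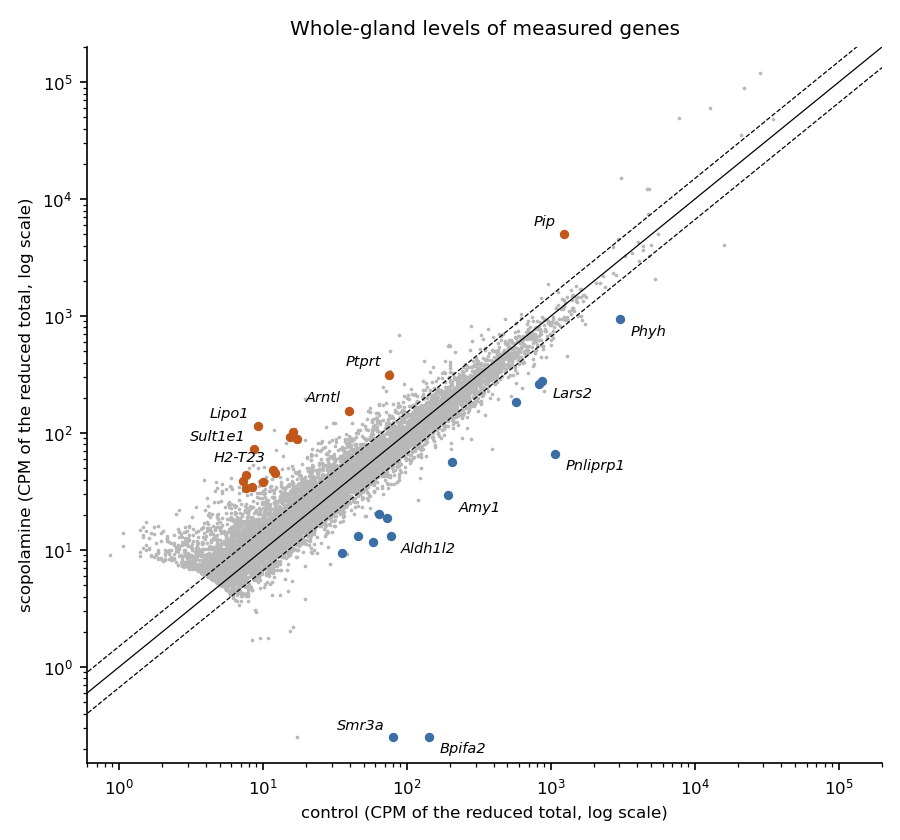
Level of each of the 10855 measured genes and of the left-out families in control (x axis) and scopolamine (y axis), in CPM of the reduced total on log axes, with the line of equality and dashed lines at 1.5-fold. Orange points are the 15 genes named as higher and blue points the 15 named as lower; Bpifa2 and Smr3a, without UMIs in scopolamine, are drawn at the floor of 3 counts.

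The 15 genes named as higher were those with the largest ratios among annotated genes averaging 20 CPM or more that were past 1.5-fold in each of 3 bands of depth. Lipo1, of the acid lipase family (ENSMUSG00000079342, chr19:33775498-33787459 of mm10), headed them with 137 UMIs in control and 1360 in scopolamine. That was 9.19 CPM in control and 115 in scopolamine, 12.5-fold higher (10.5 to 15.1). Sult1e1, the sulfotransferase that inactivates oestrogens (ENSMUSG00000029272, chr5:87575969-87591594), lay at 8.72 and 73.1 CPM and was 8.39-fold higher (6.97 to 10.2). Both were rare in control. Npas2 and Arntl, activators of the circadian clock, were also among them and are described with the clock genes below. Pip, the prolactin-inducible protein of tears, was the most abundant, at 1241 CPM in control and 5007 in scopolamine, 4.04-fold higher (3.97 to 4.1).

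Potassium channel subunits and a receptor phosphatase followed. Kcnj16, an inward rectifier, lay at 7.65 CPM in control and 33.7 in scopolamine, 4.41-fold higher (3.57 to 5.48), and Kcnab1, a beta subunit of voltage-gated channels, at 7.65 and 43.7 CPM, 5.72-fold higher (4.66 to 7.07). Kcnab1 was 2.99-fold higher (2.34 to 3.84) in the remaining nuclei. In nuclei with myoepithelial markers it went from 3 UMIs to 267, of 516 in the whole scopolamine library, a ratio of 68.8 (23.3 to 336). Ptprt, a receptor-type tyrosine phosphatase, lay at 75.3 and 316 CPM, 4.19-fold higher (3.92 to 4.49). The non-classical MHC class I gene H2-T23 lay at 11.8 and 47.9 CPM, 4.06-fold higher (3.42 to 4.83). The others were Insyn2a (5.31-fold), Leng9 (4.07-fold), Bmyc (3.79-fold) and the antisense or opposite-strand transcripts Sorbs2os (6.32-fold), Plet1os (5.17-fold) and Dtnbos (3.81-fold). Whether strand was used in counting is not given in the sources used here, so the last 3 may share reads with the genes they overlap. On the total of all genes these 15 ratios ran from 3.03-fold for Bmyc to 10.03-fold for Lipo1.

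At a fixed 1600 UMIs per nucleus, Lipo1 was found in 1.34% of control and 9.59% of scopolamine nuclei. Among nuclei with macrophage markers, thinned in the same way, it was found in 0% and 13.4%. In scopolamine the share in cells that should lack it was no lower than in the gland, so there these shares say nothing about which cells expressed Lipo1. For Pip the shares were 79.5% and 96.2% of all nuclei and 69.2% and 90.4% of those with macrophage markers. Npas2 was found in 1.46% and 9.77% of nuclei and in 0% and 3.21% of those with macrophage markers.

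The lowest ratios belonged to secreted proteins. Bpifa2 had 2130 UMIs in control and 0 in scopolamine, at least 562-fold lower against a floor of 3 counts per library. Smr3a, a submaxillary gland protein, had 1191 and 0 UMIs, 314-fold lower with the same floor and with a lower limit of 255-fold. The amylase gene Amy1 lay at 193 and 29.3 CPM, 6.57-fold lower (5.87 to 7.37). These 3 genes moved with the 77 control nuclei that carried salivary markers, a list that itself holds Bpifa2 and Amy1. Those nuclei held 1489 of the 2130 control UMIs of Bpifa2, 601 of the 1191 of Smr3a and 1871 of the 2872 of Amy1. The scopolamine library held 346 UMIs of Amy1 without any such nucleus. In the remaining nuclei Bpifa2 had 530 UMIs in control and Smr3a 490, both 0 in scopolamine, and Amy1 lay at 62.7 and 24.6 CPM. With the whole gland summed, fewer cells of a type and less RNA per cell cannot be told apart, and here the presence of other tissue in 1 sample cannot be told apart from the treatment either.

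Pnliprp1, a lipase-related protein best known from pancreas (ENSMUSG00000042179, chr19:58728887-58744169), was abundant in control and scarce in scopolamine. It lay at 1069 CPM in control and 66.7 in scopolamine, 16.03-fold lower (14.9 to 17.2). In the remaining nuclei it lay at 1139.8 and 76.4 CPM, 14.9-fold lower (13.8 to 16.1), so the difference was nearly as large there. The nuclei with salivary markers held 193 of the UMIs of Pnliprp1. Pnliprp1 and Lipo1, both of lipase families, stood at opposite ends of the ranking.

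Amino acid enzymes and transporters made up much of the rest of the lower group: Aldh1l2, Asns, Slc1a4 and Slc6a9, described below. Phyh, the peroxisomal enzyme that starts the breakdown of branched fatty acids, was the most abundant of the lower genes, at 3017 CPM in control and 938 in scopolamine, 3.22-fold lower (3.15 to 3.29). Trim24, a nuclear receptor cofactor, lay at 571 and 183 CPM, 3.12-fold lower (2.97 to 3.27). Taco1, needed to translate a mitochondrial oxidase subunit, lay at 72.5 and 18.9 CPM, 3.84-fold lower (3.32 to 4.45), and Snap91, a clathrin assembly protein, at 206 and 56.96 CPM, 3.62-fold lower (3.33 to 3.94). Fgg, the fibrinogen gamma chain, lay at 63.6 and 20.3 CPM, 3.14-fold lower (2.72 to 3.63). Lars2, the mitochondrial leucyl-tRNA synthetase, was 3.11-fold lower (3.0 to 3.24) and Cmss1 3.14-fold lower (3.02 to 3.27). Gm42418, named above, was 3.97-fold lower, close to the ratios of Lars2 and Cmss1; its part in these was not tested.

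**Figure D3:**
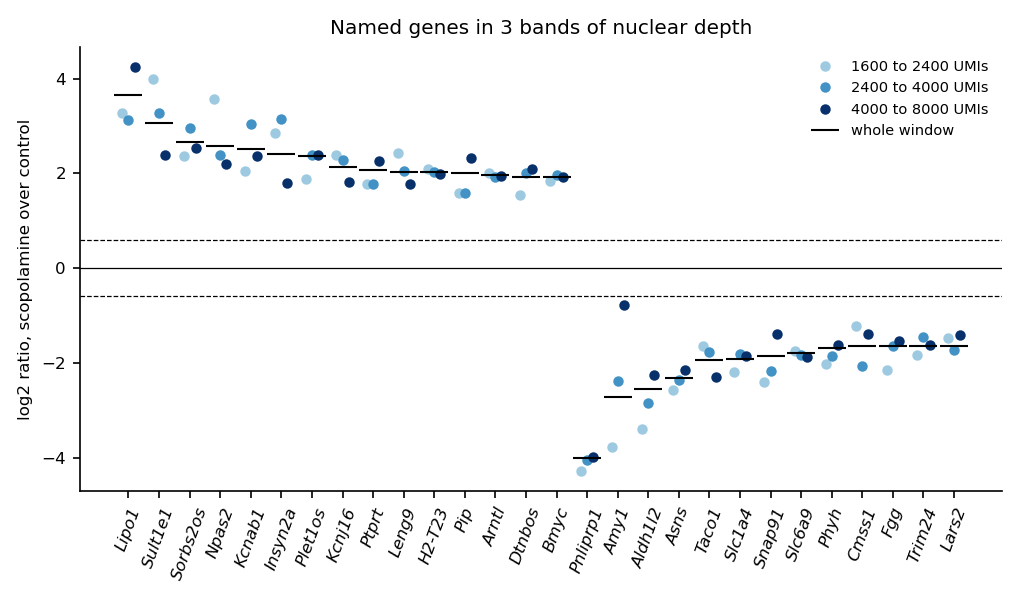
Log2 ratio of scopolamine over control (y axis) for 28 of the 30 named genes in nuclei of 1600 to 2400, 2400 to 4000 and 4000 to 8000 UMIs (points, light to dark) and in the whole window (bars), with dashed lines at 1.5-fold. Bpifa2 and Smr3a, with 0 UMIs in scopolamine, are not drawn; every other named gene keeps its direction in each band, and Amy1 spreads most among the lower genes.

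Among the named genes the ratio was often steady over depth, and in a few it was not. Arntl was 4.04-, 3.77- and 3.87-fold higher in the bands from shallow to deep, and H2-T23 4.26-, 4.06- and 4.00-fold. Sult1e1 was 16.1-, 9.75- and 5.28-fold higher, and Lipo1 9.70-, 8.69- and 19.0-fold. Amy1 was 13.6-, 5.24- and 1.73-fold lower, and Aldh1l2 10.6-, 7.20- and 4.81-fold. The bands held 2945, 1452 and 1135 nuclei in control and 1353, 1412 and 1648 in scopolamine.

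Gene lists for pathways of the gland, chosen with earlier results of these data known, were counted in the same way. Of 25 lists, those for interferon-stimulated genes, antigen presentation, chemokines, tear proteins, matrix and NF-kB had most of their measured members higher, and the ATF4 list most of its members lower. At a mean of at least 20 CPM, the counts of higher members were 7 of 11 for interferon-stimulated genes, 6 of 8 for antigen presentation, 1 of 3 for chemokines, 6 of 13 for tear proteins, 11 of 21 for matrix and 4 of 13 for NF-kB, and 15 of 23 ATF4 genes were lower. Under 5 CPM in control, and thus measured through scopolamine, were 6 of the higher interferon genes, 7 of the matrix genes, 5 of the NF-kB genes, 3 of the tear genes and 1 each of the antigen presentation genes and chemokines.

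**Figure D4:**
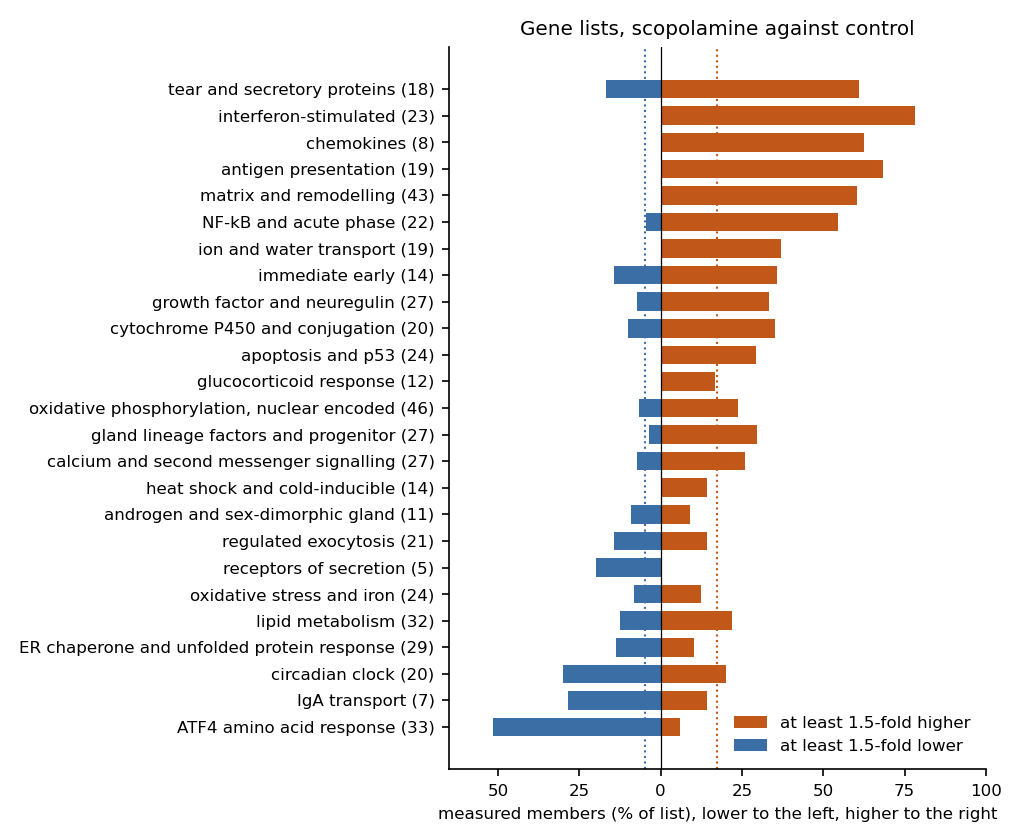
Percent of measured members (number in brackets) of each gene list that were higher (orange, right) or lower (blue, left) by 1.5-fold or more in scopolamine on the reduced total, ordered by median ratio. Dotted lines mark 17.4% and 4.66%, the shares among all measured genes; the interferon list reaches 78.3% higher and the ATF4 list 51.5% lower.

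The circadian clock genes were split by their role. In the clock, ARNTL with CLOCK or NPAS2 binds E-boxes and activates the Per, Cry and Nr1d genes and the output factors Dbp and Tef, while the NR1D proteins repress Arntl and Npas2 through elements shared with the ROR activators. Of 20 measured clock genes of 21, 4 were higher and 6 lower. Of 5 activators 3 were higher and 0 lower, of 10 measured repressors 1 was higher and 4 lower, and of 5 output genes 0 were higher and 2 lower. Npas2 (ENSMUSG00000026077, chr1:39193731-39363236) lay at 15.5 CPM in control and 92.6 in scopolamine, 5.98-fold higher (5.18 to 6.92), and Arntl at 39.6 and 155 CPM, 3.93-fold higher (3.58 to 4.31). The 1 higher repressor was Nfil3, which competes with Dbp at D-boxes, at 4.36 and 11.7 CPM, 2.68-fold higher (1.98 to 3.66). Clock lay at 244 and 314 CPM, not past 1.5-fold.

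Other repressors and the outputs Dbp and Tef stood below. Dbp lay at 15.4 CPM in control and 2.03 in scopolamine, 7.58-fold lower (4.97 to 12.1), Nr1d2 at 278 and 89.8 CPM, 3.09-fold lower (2.89 to 3.31), and Nr1d1 at 15.9 and 5.42 CPM, 2.93-fold lower (2.21 to 3.93). Tef lay at 262 and 109.9 CPM, 2.38-fold lower (2.24 to 2.54), and Per3 at 85.1 and 37.9 CPM, 2.25-fold lower (2.02 to 2.51). The other Per genes did not follow, with Per1 at 17.4 and 24.5 CPM and Per2 at 22.6 and 17.2 CPM. On the total of all genes 3 clock genes were higher and 11 lower. The hour at which the glands were taken is not given in the sources used here, and with 1 library per group it cannot be told apart from the treatment.

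Short stretches around clock motifs are shown for genes of each side, read from the 250 bases before the start site in the RefSeq promoter table of GRCm38 (mm10). Searched on both strands were the E-box CACGTG, found in 6.02% of 32851 such windows, the ROR element TAGGTCA or TGGGTCA, in 5.38%, and the D-box TTATGTAA or TTACGTAA, in 0.931%. Capitals mark the match on either strand. Of 17 measured clock genes with a window, 4 held an E-box, 1 a ROR element and 1 a D-box. Over all genes with a window the shares were 6.86%, 6.15% and 1.10%. Most of the clock genes thus held none of the 3 in these letters. The E-box genes were Tef and Bhlhe41, which were lower, and Per1 and Cry1, neither past 1.5-fold. Per3 had 2 D-boxes (chr4:151044843-151044890, minus strand, and chr4:151044796-151044843, minus strand), Tef an E-box at each of 2 starts (chr15:81802526-81802571, plus strand, is shown), and Nfil3 a ROR element (chr13:52981040-52981071, minus strand).
Per3 D-box, first: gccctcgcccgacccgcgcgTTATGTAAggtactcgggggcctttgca
Per3 D-box, second: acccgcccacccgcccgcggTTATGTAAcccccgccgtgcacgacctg
Tef E-box: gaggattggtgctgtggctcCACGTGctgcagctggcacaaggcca
Nfil3 ROR element: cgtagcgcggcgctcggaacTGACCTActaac

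Genes of the amino acid response stood lower as a group. ATF4 is the transcription factor that cells raise when amino acids run short or protein folding is disturbed, and it switches on amino acid synthesis, import and tRNA charging. Of 33 measured members of 41, 2 were higher and 17 lower, with a median log2 ratio of -0.60 beside 0.05 over all measured genes, and on the total of all genes 1 was higher and 22 lower. The synthesis enzymes were lower in 7 of 9, the transporters in 5 of 8 and the tRNA synthetases in 5 of 7. Asns, asparagine synthetase (ENSMUSG00000029752, chr6:7675169-7693254), lay at 58.2 CPM in control and 11.6 in scopolamine, 5.01-fold lower (4.18 to 6.05), and Aldh1l2, the mitochondrial formyl-folate enzyme (ENSMUSG00000020256, chr10:83487450-83534140), at 77.2 and 13.1 CPM, 5.88-fold lower (4.97 to 7.0). Among the transporters, Slc1a4, for alanine and serine, lay at 35.6 and 9.41 CPM, 3.79-fold lower (3.08 to 4.69), and Slc6a9, for glycine, at 46.1 and 13.3 CPM, 3.46-fold lower (2.91 to 4.15).

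Among the other lower members, Phgdh, which opens serine synthesis, lay at 36.2 and 17.7 CPM, 2.04-fold lower, and Aldh18a1, of proline synthesis, at 55.8 and 23.1 CPM, 2.42-fold lower. Of the synthetases, Aars lay at 52.5 and 28.1 CPM, 1.87-fold lower, and Gars at 72.4 and 42.7 CPM, 1.69-fold lower. Atf4 itself lay at 94.1 and 71.2 CPM, not past 1.5-fold. Nupr1, a stress-induced chromatin protein, went the other way, at 183 and 414 CPM, 2.26-fold higher (2.16 to 2.37), and Ddit3, the stress factor CHOP, at 8.45 and 12.7 CPM, 1.5-fold higher (1.18 to 1.92). The count was again 2 higher and 17 lower of 33 in the remaining nuclei.

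The ATF4 element TGATGNAA, searched on both strands in the same windows, was found in 3.45% of windows and for 3.91% of genes. Of 27 measured list genes with a window 7 held it, among them 5 of 14 lower genes: Asns, Slc7a11, Pycr1, Aars and Gars. It was also found at Nupr1, which was higher, and at Vldlr. A match is a run of letters, and no binding was measured. Stretches are shown for the 5 lower genes and Nupr1, with the match in capitals. They lie at chr6:7693210-7693252, minus strand (Asns), chr3:50443652-50443699, minus strand (Slc7a11, the first of 2 matches), chr11:120643824-120643871, minus strand (Pycr1), chr8:111033710-111033757, plus strand (Aars), chr6:55037951-55037998, plus strand (Gars) and chr7:126625553-126625600, minus strand (Nupr1).
Asns: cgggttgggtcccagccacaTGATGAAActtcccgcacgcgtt
Slc7a11: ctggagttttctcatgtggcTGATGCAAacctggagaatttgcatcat
Pycr1: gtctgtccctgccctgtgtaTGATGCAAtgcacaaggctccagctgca
Aars: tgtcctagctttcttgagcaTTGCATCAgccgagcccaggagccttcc
Gars: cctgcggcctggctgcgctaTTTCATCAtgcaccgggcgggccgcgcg
Nupr1: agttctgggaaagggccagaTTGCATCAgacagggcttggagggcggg

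The clock and amino acid differences were looked at within groups of nuclei. In the remaining nuclei Npas2 was 11.96-fold higher (9.24 to 15.7), and in those with fibroblast markers 16.2-fold higher (8.02 to 38.3), with 8 and 146 UMIs. In nuclei with myoepithelial markers, where Npas2 was already at 171 CPM in control, it was 1.63-fold higher (1.34 to 2.0). That interval lies below the other 2. Arntl was 3.77-fold higher (3.4 to 4.18) in the remaining nuclei, 8.28-fold higher (4.79 to 15.5) with myoepithelial markers and 3.21-fold higher (1.96 to 5.47) with macrophage markers. Nr1d2 was 2.89-fold lower (2.68 to 3.12), 3.93-fold lower (3.06 to 5.08) and 4.55-fold lower (2.96 to 7.22) in the same groups. Asns was 5.0-fold lower (4.09 to 6.16) in the remaining nuclei and 4.72-fold lower (1.73 to 16.03) with fibroblast markers, where it had 21 and 5 UMIs. With T or NK cell markers Arntl was 1.4-fold higher (0.749 to 2.71), an interval that spans no difference. Clock differences were thus found with myoepithelial, fibroblast and macrophage markers too, and the part of free RNA in these levels was not tested. For genes abundant in acini, such as Phyh, 2.97-fold lower (2.91 to 3.04) in the remaining nuclei and 4.36-fold lower (3.75 to 5.1) with macrophage markers, free RNA is a part of the level in other groups that was not tested.

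**Figure D5:**
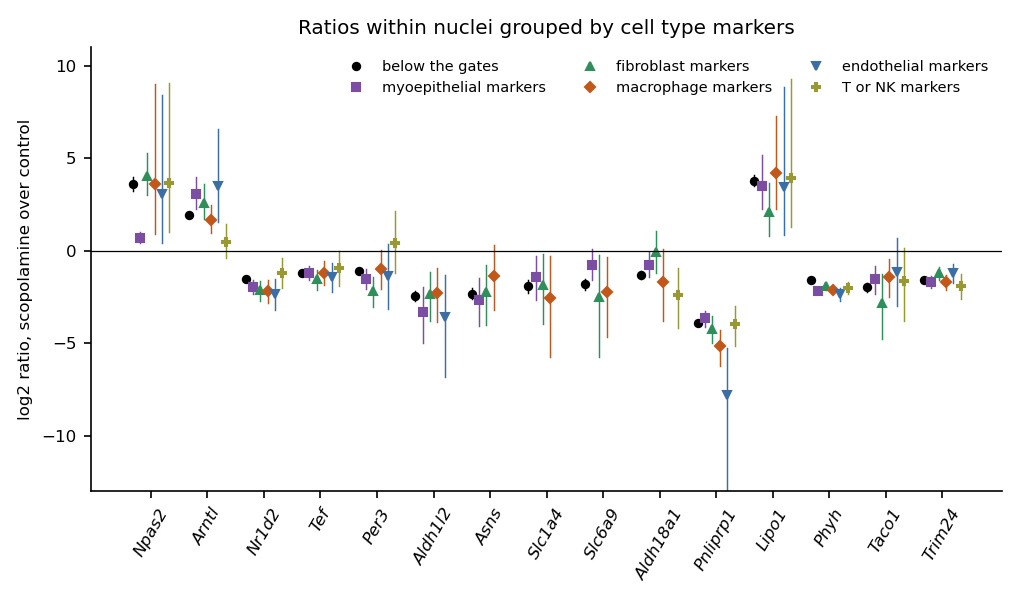
Log2 ratio of scopolamine over control (y axis, CPM of the reduced total within each group) for 15 genes in nuclei grouped by cell type markers, with vertical lines for 95% counting intervals. Points are drawn where both libraries have UMIs and together at least 10; Npas2 and Arntl lie above 0 and Nr1d2 and Tef below 0 in every group drawn, and lines beyond the axis are cut.

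Few folding genes of the endoplasmic reticulum were past 1.5-fold on the reduced total. Of 29 measured members of 31 in the unfolded protein response list, 3 were higher and 4 lower, and on the total of all genes 2 and 9. On the reduced total that was 10.3% and 13.8%, beside 17.4% and 4.66% of all measured genes. The higher ones were chaperones: Calr, calreticulin, at 61.8 CPM in control and 124 in scopolamine, 2.0-fold higher (1.84 to 2.17), Manf at 31.6 and 59.3 CPM, 1.88-fold higher (1.67 to 2.12), and Hsp90b1 at 208 and 326 CPM, 1.57-fold higher (1.5 to 1.65). The lower ones belong to sensing and disposal of misfolded protein: Herpud1 at 312 and 156 CPM, 2.01-fold lower (1.9 to 2.12), Derl3 at 97.3 and 46.7 CPM, 2.08-fold lower (1.89 to 2.3), Atf6 at 378 and 199 CPM, 1.9-fold lower (1.81 to 2.0), and Edem2 at 327 and 187 CPM, 1.75-fold lower (1.66 to 1.84). By role, 3 of 14 measured chaperones were higher, 21.4% beside 17.4% of all measured genes, and 0 lower. Of 7 sensors 0 were higher and 1 lower, and of 8 degradation genes 0 higher and 3 lower. On the total of all genes the counts were 2 and 1 for chaperones, 0 and 4 for sensors and 0 and 4 for degradation genes.

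Many secreted proteins outside the left-out families were higher. Of 18 measured members of 29 in the tear list, 11 were higher and 3 lower, the last being Bpifa2, Smr3a and Pnliprp1. On the total of all genes 11 were higher and 5 lower. Of the 11 higher on the reduced total, 3 lay under 5 CPM in control and were thus measured through scopolamine. At a mean of at least 20 CPM 6 of 13 were higher and 3 lower. Ltf, the iron-binding lactoferrin, lay at 278 CPM in control and 816 in scopolamine, 2.93-fold higher (2.83 to 3.04), the lipocalin Lcn11 at 131 and 416 CPM, 3.17-fold higher (3.01 to 3.34), and Wfdc18 at 200.3 and 551 CPM, 2.75-fold higher (2.63 to 2.87). Clu, the chaperone clusterin, lay at 5.16 and 32.1 CPM, 6.22-fold higher (4.86 to 8.05), and Lcn2, an acute phase lipocalin, at 1.48 and 12.9 CPM, 8.73-fold higher (5.56 to 14.3). Car6, a carbonic anhydrase of tears and saliva, lay at 1201 and 1414 CPM and Dmbt1 at 362 and 243 CPM, neither past 1.5-fold.

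Of 5 measured receptors of secretion 0 were higher and 1 lower, and on the total of all genes 0 and 2. Chrm3, the muscarinic M3 receptor that scopolamine blocks, was the only muscarinic receptor of 5 that was measured, at 4046 CPM in control and 4275 in scopolamine, 1.06-fold higher (1.04 to 1.07) on the reduced total and 0.845 of control on the total of all genes. Adra1a, the alpha-1A adrenergic receptor, lay at 279.7 and 184 CPM, 1.52-fold lower (1.45 to 1.61). The beta-1 adrenergic receptor Adrb1 lay at 9.32 and 6.27 CPM, the ATP-gated channel P2rx7 at 56.4 and 67.5 CPM and the VIP receptor Vipr1 at 18.7 and 21.6 CPM. Adra1a was 1.44-fold lower (1.36 to 1.52) and Adrb1 2.62-fold lower (1.74 to 4.07) in the remaining nuclei. Chrm3 lay at 2596 CPM in control nuclei with macrophage markers, against 3981 in the remaining control nuclei.

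Of 27 measured genes of calcium and second messengers 7 were higher and 2 lower. They include Itpr1, an inositol trisphosphate receptor, at 61.3 and 108 CPM, 1.76-fold higher (1.62 to 1.92), and the phosphodiesterases Pde3a, at 4.09 and 17.5 CPM, 4.27-fold higher (3.19 to 5.78), and Pde10a, at 4.29 and 10.9 CPM, 2.55-fold higher (1.87 to 3.49). Adcy9, an adenylyl cyclase, lay at 506 and 300.3 CPM, 1.69-fold lower (1.62 to 1.75), and Atp2a3, a calcium pump, at 11.3 and 6.53 CPM, 1.73-fold lower (1.31 to 2.29). The calcium entry channel Trpv4 lay at 5.37 and 9.32 CPM. Only 2 of 23 were higher in the remaining nuclei, and 2 of 27 on the total of all genes.

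Ion transporters that drive fluid secretion were higher or near control. Of 19 measured members of 32, 7 were higher and 0 lower, and on the total of all genes 5 and 0. Besides Kcnj16, Kcnj15 lay at 6.44 CPM in control and 23.6 in scopolamine, 3.66-fold higher (2.89 to 4.66). Atp1b1, the beta subunit of the sodium pump, lay at 15.96 and 37.5 CPM, 2.35-fold higher (2.0 to 2.76). Kcnn4, a calcium-activated potassium channel of acini, lay at 60.3 and 117 CPM, 1.95-fold higher, and Slc12a2, which loads chloride into the cell, at 175 and 298 CPM, 1.7-fold higher. Within the remaining nuclei 8 of 19 were higher, beside 14.2% of all genes measured there. Of 21 measured genes of regulated exocytosis 3 were higher and 3 lower, and on the total of all genes 1 and 5: the SNARE protein Vamp2 at 24.95 and 55.3 CPM, 2.21-fold higher (1.95 to 2.52), and the active-zone protein Rims2 at 60.2 and 20.8 CPM, 2.9-fold lower (2.51 to 3.35), lay furthest apart. The other lower genes were Rab6b, at 48.6 and 27.5 CPM, and Stxbp2, at 99.4 and 59.8 CPM.

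Most interferon-stimulated genes were higher. Interferons are cytokines that switch on antiviral effectors in the cells they reach. Of 23 measured members of 34, 18 were higher and 0 lower, with a median log2 ratio of 1.06, and on the total of all genes 14 and 0. The effectors were higher in 17 of 18 and the transcription factors of the list in 1 of 5. Ifi44 lay at 5.43 CPM in control and 23.1 in scopolamine, 4.26-fold higher (3.31 to 5.53), Bst2, which tethers budding virus, at 4.16 and 14.7 CPM, 3.55-fold higher (2.64 to 4.82), and the guanylate-binding proteins Gbp2 and Gbp4 at 2.75 and 8.9 CPM, 3.24-fold higher (2.24 to 4.76), and 3.76 and 11.3 CPM, 3.0-fold higher (2.18 to 4.18). These levels are low, a few UMIs in 1000000. The summed level of the list was 587 CPM in control and 1018 in scopolamine over the gland. It was 516 and 816 CPM in the remaining nuclei, 1529 and 3162 with macrophage markers and 547 and 854 with myoepithelial markers. Within the remaining nuclei 12 of 19 measured members were higher, beside 14.2% of all genes.

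Antigen presentation genes stood higher as well. Of 19 measured members of 22, 13 were higher and 0 lower, 11 of them among 13 class I genes and 2 among 6 class II genes; on the total of all genes 8 were higher and 0 lower. H2-T23, described above, led them. H2-Q4 and H2-Q6 lay at 11.5 and 28.6 CPM, 2.49-fold higher (2.07 to 3.01), and 5.57 and 13.9 CPM, 2.5-fold higher (1.91 to 3.29), and B2m, the class I light chain, at 17.9 and 44.7 CPM, 2.49-fold higher (2.15 to 2.9). The H2 genes are close copies, so reads may be split between them. Nlrc5, the activator of class I genes, lay at 20.9 and 49.7 CPM, 2.38-fold higher (2.07 to 2.74), and the invariant chain Cd74 at 12.3 and 26.4 CPM, 2.14-fold higher (1.77 to 2.58). Macrophage markers were higher in 7 of 10 measured, in 3 of 10 on the total of all genes, and in 1 of 3 at a mean of at least 20 CPM. Nuclei with those markers were 2.64% and 4.24% of the kept nuclei. In the remaining nuclei 9 of 17 antigen presentation genes were higher.

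Inflammatory signals were higher in part, many at low levels. Of 22 measured members of 37 in the NF-kB and acute phase list, 12 were higher and 1, Fgg, lower, and on the total of all genes 9 and 1. Of the 12, 5 lay under 5 CPM in control and were thus measured through scopolamine, Tnf and Vcam1 among them. At a mean of at least 20 CPM 4 of 13 were higher and 1 lower. Among the remaining nuclei 9 of 18 were higher and 1 lower, with a median log2 ratio of 0.51. Nuclei with macrophage markers were 2.64% and 4.24% of the kept nuclei and those with T or NK cell markers 1.27% and 2.29%; their part in the count was not tested. Besides Lcn2, Tnf lay at 2.01 and 8.14 CPM, 4.04-fold higher (2.66 to 6.31), and the adhesion molecule Vcam1 at 3.15 and 8.05 CPM, 2.55-fold higher (1.78 to 3.7). Nfkbia, the inhibitor that NF-kB itself switches on, lay at 38.8 and 38.8 CPM. Of 28 chemokines 8 were measured, and 5 were higher and 0 lower, or 4 and 0 on the total of all genes. Of the 5, 1 lay under 5 CPM in control, and at a mean of at least 20 CPM 1 of 3 was higher. Cxcl1, which draws neutrophils, lay at 1.68 CPM in control and 13.98 in scopolamine, 8.34-fold higher (5.45 to 13.3), Cxcl17 at 17.9 and 43.9 CPM, 2.45-fold higher (2.11 to 2.85), Cxcl16 at 6.84 and 15.8 CPM, 2.32-fold higher (1.81 to 2.98), and Cx3cl1 at 9.59 and 21.02 CPM, 2.19-fold higher (1.78 to 2.71). Of the neutrophil markers S100a8, S100a9, Ly6g, Retnlg, Cxcr2 and Csf3r, Csf3r alone was measured, and Ly6g and Retnlg had 0 UMIs in both libraries.

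Transport of IgA into tears was split. Pigr, the receptor that carries IgA through the acinar cell, lay at 197 CPM in control and 567 in scopolamine, 2.88-fold higher (2.76 to 3.01), and was 3.04-fold higher (2.9 to 3.19) in the remaining nuclei. The antibody chains made by plasma cells were lower: Igha lay at 81.96 and 36.6 CPM, 2.24-fold lower (2.0 to 2.5), and Igkc at 48.9 and 28.6 CPM, 1.71-fold lower (1.5 to 1.95). Tnfsf13, a survival factor of plasma cells, lay at 10.3 and 7.2 CPM, not past 1.5-fold. Of 7 measured members of the list 1 was higher and 2 lower, and on the total of all genes 1 and 4. Nuclei with B or plasma cell markers, a list that holds Igha, were 1.95% of control and 1.86% of scopolamine nuclei in the window, and 2.72% and 1.85% of all deposited barcodes.

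Matrix genes were higher over the gland and mostly not within the remaining nuclei. Of 43 measured members of 60, 26 were higher and 0 lower, and on the total of all genes 18 and 0. Of the 26, 7 lay under 5 CPM in control and were thus measured through scopolamine, Thbs1, Bgn and Col5a3 among them. At a mean of at least 20 CPM 11 of 21 were higher and 0 lower. In the remaining nuclei 18 were measured, and 4 were higher and 0 lower, with a median log2 ratio of 0.14. Thbs1, thrombospondin, lay at 1.61 CPM in control and 10.2 in scopolamine, 6.32-fold higher (4.05 to 10.2), elastin (Eln) at 5.1 and 26.2 CPM, 5.14-fold higher (3.99 to 6.69), biglycan (Bgn) at 2.88 and 11.9 CPM, 4.11-fold higher (2.9 to 5.93), and Col5a3 at 4.16 and 16.7 CPM, 4.02-fold higher (3.0 to 5.43). The basement membrane collagen Col4a1 lay at 20.7 and 50.3 CPM, 2.43-fold higher (2.12 to 2.8). The list's summed level was highest in nuclei with fibroblast markers, which were 2.86% of kept control and 4.31% of kept scopolamine nuclei. Those with endothelial markers were 0.687% and 2.31%. Over all deposited barcodes the fibroblast shares were 2.63% and 3.03% and the endothelial shares 1.01% and 1.38%. Within nuclei with fibroblast markers the summed level of the list, which shares genes with those markers, was 11249 and 14741 CPM. Genes that did not define the fibroblast group differed there too: Col5a3 was 5.08-fold higher (3.27 to 8.19) and Eln 3.15-fold higher (1.94 to 5.32). Endothelial markers were higher in 7 of 8 measured, with Vwf the exception at 27.3 and 13.6 CPM. Of the 7, 4 lay under 5 CPM in control and were thus measured through scopolamine. At a mean of at least 20 CPM 2 were measured, 1 higher and 1 lower.

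Growth factors of epithelium and stroma were higher in part. Of 27 measured ligands and receptors 9 were higher and 2 lower, and on the total of all genes 7 and 3. Nrg4, a ligand of the ERBB4 receptor, lay at 41.9 CPM in control and 122 in scopolamine, 2.92-fold higher (2.65 to 3.21), and was 3.07-fold higher (2.77 to 3.41) in the remaining nuclei. Fgf10, made by stroma for the gland epithelium, lay at 18.7 and 54.1 CPM, 2.89-fold higher (2.51 to 3.34), and within nuclei with fibroblast markers it was 2.66-fold higher (2.21 to 3.21), with 152 and 454 UMIs. Its receptor Fgfr2 lay at 152 and 366 CPM, 2.41-fold higher (2.29 to 2.54). Hbegf went the other way, at 8.99 and 2.97 CPM, 3.03-fold lower (2.08 to 4.53). Of 27 measured lineage factors 8 were higher and 1 lower, and on the total of all genes 5 and 5. Prom1, an apical membrane protein, lay at 5.7 and 24.9 CPM, 4.37-fold higher (3.42 to 5.63), the keratin Krt8 at 26.3 and 74.1 CPM, 2.82-fold higher (2.5 to 3.18), and Sox10, an acinar and myoepithelial factor, at 7.71 and 18.9 CPM, 2.45-fold higher (1.95 to 3.1). The basal keratin Krt14 lay at 3.29 and 7.29 CPM. Pax6, the eye and gland factor, lay at 589 and 481 CPM, not past 1.5-fold.

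Metabolic lists were mixed. Of 32 measured lipid genes 7 were higher and 4 lower, 21.9% and 12.5% beside 17.4% and 4.66% of all measured genes. On the total of all genes the counts were 6 and 10. The balance thus turned with the total, as it did over all measured genes, with 9.29% higher and 18.9% lower on that total. Besides Phyh, Ppara, which drives fat oxidation, lay at 112 and 62.04 CPM, 1.81-fold lower (1.66 to 1.98), while Lpl, lipoprotein lipase, lay at 7.51 and 21.9 CPM, 2.91-fold higher (2.32 to 3.67), and Pparg at 12.3 and 25.9 CPM, 2.1-fold higher (1.74 to 2.54). The desaturase Scd1 lay at 7.24 and 15.4 CPM and the droplet protein Plin2 at 4.63 and 9.83 CPM. Of 20 measured cytochrome P450 and conjugation genes 7 were higher and 2 lower, and on the total of all genes 5 and 3. The 2 were Cyp2a5, at 203 and 73.7 CPM, 2.75-fold lower (2.55 to 2.97), and Cyp2b10, at 84.8 and 38.2 CPM, 2.22-fold lower (1.99 to 2.48). Besides Sult1e1, Sult1d1 lay at 4.09 and 14.6 CPM, 3.56-fold higher (2.65 to 4.85). Mgst1, a glutathione transferase, lay at 2.88 and 10.1 CPM. By role, of 7 measured P450 genes 1, under 5 CPM in control, was higher, 2 were lower and 4 lay between. Of 13 measured conjugation genes 6 were higher and 0 lower. On the total of all genes the counts were 1 and 2 for P450 genes and 4 and 1 for conjugation genes.

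Iron genes moved apart. Tfrc, the transferrin receptor that brings iron in, lay at 631 CPM in control and 245 in scopolamine, 2.57-fold lower (2.47 to 2.68). Fth1, the ferritin heavy chain that stores it, lay at 15.1 and 35.1 CPM, 2.33-fold higher (1.97 to 2.75). Of 24 measured genes of oxidative stress and iron 3 were higher and 2 lower, and on the total of all genes 2 and 3, the third higher gene after Fth1 and Ftl1 being Alox12, at 10.6 and 38.7 CPM, 3.65-fold higher (3.04 to 4.41).

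Many ribosomal protein genes were higher. Of 33 ribosomal protein genes 18 were higher and 0 lower, and on the total of all genes 8 and 0; Rpl23 lay at 63.05 and 149 CPM, 2.36-fold higher (2.18 to 2.56). Of 46 measured oxidative phosphorylation genes 11 were higher, 23.9% beside 17.4% of all genes, and 3 lower, and on the total of all genes 2 and 8. The 11 are all subunits, such as Ndufa1 at 3.22 and 10.5 CPM, 3.26-fold higher (2.32 to 4.66), and Ndufa13 at 5.7 and 18.5 CPM, and the 3 are Taco1, Lars2 and Sirt3. By gene length, the shortest of 4 equal groups of measured genes, with a median of 7.48 kb, had a median log2 ratio of 0.17 and 23.1% higher, and the other groups, from short to long, medians of 0.04, -0.01 and 0.04 and 13.9%, 12.8% and 19.7% higher. The median mitochondrial share was 0.121% in control and 0.216% in scopolamine. The part of gene length and of the mitochondrial share in these counts was not tested.

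The other lists are given by their counts. Of 24 measured apoptosis and p53 genes 7 were higher and 0 lower, or 2 and 1 on the total of all genes, with Fas at 3.29 and 8.81 CPM, 2.68-fold higher (1.89 to 3.85), and Trp53inp1 at 39.2 and 89.1 CPM, 2.27-fold higher (2.05 to 2.52). Pycard, an adaptor of inflammasomes, lay at 18.2 and 32.04 CPM. Of 14 measured immediate early genes 5 were higher and 2 lower, or 4 and 2 on that total: Ier3 lay at 3.49 and 9.58 CPM, 2.75-fold higher (1.96 to 3.89), and Myc at 19.6 and 7.29 CPM, 2.69-fold lower (2.11 to 3.46). Klf6 lay at 16.6 and 35.5 CPM and Btg2 at 16.4 and 33.1 CPM. Of 12 measured glucocorticoid targets 2 were higher, Sgk1 at 3.89 and 8.39 CPM and Lcn2, and 0 lower, or 2 and 2 on that total. Tsc22d3 lay at 94.2 and 65.3 CPM and Errfi1 at 60.9 and 86.3 CPM. Of 14 measured heat shock and cold-inducible genes 2 were higher, Hspa8 at 17.04 and 45.8 CPM, 2.69-fold higher (2.31 to 3.13), and Hsp90ab1, at 64.9 and 99.9 CPM, and 0 lower, or 1 and 1 on that total. Hsp90aa1 lay at 24.3 and 35.6 CPM and Hspe1 at 8.12 and 11.4 CPM. Of 11 measured androgen and sex-dimorphic genes 1, Steap4 at 5.57 and 10.2 CPM, was higher and 1, Acpp at 273 and 169.5 CPM, lower, or 0 and 2 on that total. Hsd17b11 lay at 16.9 and 24.3 CPM and Zbtb16 at 228 and 304 CPM. Of 7 measured nuclear retained RNAs 0 were higher and 0 lower. Tsix, antisense to Xist, lay at 95.6 and 265 CPM, 2.77-fold higher (2.6 to 2.95); without stranded counting its reads cannot be told apart from those of Xist. Of 5 measured erythroid markers 4 were higher, with Hbb-bs at 195 and 554 CPM, and adipocyte, mast cell and skeletal muscle markers had 0 measured members.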

How the data were processed

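Nuclei of mouse lacrimal gland were measured by droplet single-nucleus RNA sequencing, with 3' libraries of the 10x type per the labels' protocols. The authors deposited, per the file headers, a matrix of raw UMI counts for each library with its lists of genes and barcodes, 32285 genes in all. The submitters' processing notes name Cell Ranger 5.0.0 and the mm10 build; whether reads within introns and strand were counted is not given in the sources used here.

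From these counts, nuclei with 1600 to 8000 UMIs, at least 300 genes and at most 5% mitochondrial UMIs were kept and summed within each library. Kept nuclei summed to 16319395 UMIs in control and 16147399 in scopolamine. CPM, ratios and intervals were computed with Python 3.11.15, numpy 2.4.6, scipy 1.17.1 and pandas 2.3.3. Intervals on levels are exact Poisson, on ratios exact conditional binomial and on shares of nuclei Clopper-Pearson, all at 95%, and cover counting error only. With 1 library per group there is no test, and values past 1.5-fold are descriptions of these libraries. No doublet caller was run, since UMIs were summed over all nuclei; 124 control and 186 scopolamine nuclei passed more than 1 marker gate and went to the type with the most marker UMIs. The ratio and interval code was tested on simulated data.

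Named genes are the 15 highest and 15 lowest ratios past 1.5-fold in all 3 depth bands, among genes with a mean of at least 20 CPM outside the left-out, ribosomal protein, haemoglobin and unnamed model families, and in each list the 4 measured members with the largest absolute log2 ratio. Others were named for their role after their values were seen. The members and lists were chosen with earlier results of these data known. The number of alternatives was 15, with 3 added after seeing the data. Some list members that this rule or their role would name are not reported here by name.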

Additional observations from a re-analysis of the deposited data

Results flagged for a closer look

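The left-out families were also looked at in barcodes outside the depth window, which enter no comparison above. Among the 4722 scopolamine barcodes below 1600 UMIs they held 31.9% of UMIs, against 10.0% among the 776 control barcodes there. The lowest deposited barcode held 1492 UMIs in control and 967 in scopolamine, so these 2 sets cover unlike depths. Among the 880 scopolamine barcodes above 8000 UMIs they held 25.7%, against 5.34% among the 890 control barcodes there. The share was higher in scopolamine on both sides of the window; with 1 library per group the difference was not tested.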

How the results depend on the processing

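The 2 libraries give no replicate error, and depth limits genes of a few CPM. No paired analysis was possible because each group is 1 library and the labels carry no replicate numbers. Against 1893 higher and 506 lower genes, the total of all genes gave 1008 and 2057, a mean of at least 20 CPM 690 and 336, a mean of at least 1 CPM 3763 and 774, and a 2-fold limit 844 and 92. Nuclei of 1600 to 2400 UMIs gave 3445 higher and 841 lower genes. Lower genes were 791 in nuclei of 4000 to 8000 UMIs and 1082 in nuclei with at most 10% of UMIs in the left-out families. The left-out share, 3.12 times that of control, was 2.83 times with each nucleus thinned to 1600 UMIs, 3.07 with equal depth bins, 2.48, 2.27 and 4.07 in the 3 depth bands and 2.65 with at most 0.5% mitochondrial UMIs. It was 1.16 in nuclei with at most 10% of UMIs in these families, a limit set on the same measure. It was 3.12 without nuclei with salivary markers, 2.37 without nuclei over 50% and 3.30 in the remaining nuclei, alternatives added after seeing the data. For other results the cause of these shifts was not tested. Of 463 values of 31 named genes under the alternatives 294 moved by less than the counting interval, 169 moved further and 0 were reversed, and 1 of the values of the 30 genes past 1.5-fold fell below it: Pip in nuclei with at most 10% left-out UMIs. Of 375 list medians 0 were counted as reversed, but medians near 0 did change sign with the total. On the total of all genes the median log2 ratio went from 0.17 to -0.15 for calcium and second messengers. For oxidative phosphorylation it went from 0.19 to -0.13. Among lists with a median past 1.5-fold, 16 values fell below it, in the ATF4, NF-kB, antigen presentation and matrix lists.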
